A study of Mus musculus with 8 samples.

Results

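The 4 genes of the Tsc22d family and 6 genes known for their tie to glucocorticoid hormones were examined in the livers of mice that carry a mutant gene of nutrient signaling. These 10 genes, Tsc22d1, Tsc22d2, Tsc22d3, Tsc22d4, Nr3c1, Fkbp5, Sgk1, Klf9, Errfi1 and Dusp1, were taken by name from the 14506 genes measured, and all 10 passed the filter on low values that left 11174 genes for testing. Tsc22d1 was chosen by its normalized count, which was lower in the mutant livers of these same mice, so its difference between genotypes is given as a description with no test. The other 9 genes were chosen as relatives of Tsc22d1 or as known glucocorticoid targets, together with the gene of the receptor itself.

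Livers came from 8 mice, 4 Rragc S74N/+ and 4 Rragc +/+ (called wild-type below), in a study of nutrient signaling and aging. Rragc encodes RagC, a small GTPase that reports amino acid supply to mTORC1, a kinase complex. S74N is a knock-in substitution of serine by asparagine on 1 allele, present in every cell of the body. Age was 3 months for Rragc +/+ replicates 1 to 3 and Rragc S74N/+ replicates 1 and 2, 2.5 months for Rragc +/+ replicate 4 and Rragc S74N/+ replicate 3, and 2 months for Rragc S74N/+ replicate 4 alone, so that at 2 months genotype and age cannot be told apart. Values are normalized read counts from libraries that read the 3′ end of each messenger RNA, and replicate numbers only name a liver.

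TSC22 domain proteins carry a leucine zipper through which they pair with each other and with other proteins, and their founding member Tsc22d1 was found as a transcript induced by transforming growth factor β. Tsc22d3, also called GILZ for glucocorticoid-induced leucine zipper, is switched on by the glucocorticoid receptor and carries part of the anti-inflammatory action of the hormone. In the liver, glucocorticoids follow the day and fasting, and the hormone-bound receptor enters the nucleus, where it binds a short inverted repeat in DNA and raises genes of glucose production, the feedback chaperone Fkbp5 and others.

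The DNA sequence before the members' transcription starts shows where such letters occur. RefSeq windows of 300 bases around a start (build GRCm38.p6) were at hand for 7 members, 19 windows in all, with none matched for Tsc22d2 and Tsc22d4, and Nr3c1 was not searched. The glucocorticoid response element, searched as AGAACANNNTGTTC on both strands (GAACANNNTGTTCT on the other), was found in 16 of 32851 windows of all genes (0.0487%) and in 1 of the 19 member windows, that of Sgk1. Its arm AGAACA, which the element contains and which was also searched on both strands, was in 19.0% of all windows and in 5 of the 19, namely 3 windows of Sgk1, 1 of Tsc22d1 and 1 of Tsc22d3. The cAMP response element TGACGTCA, bound by CREB, was in 1.79% of all windows and in 2 of the 19, those of Errfi1 and Dusp1. The stretches below are shown because they hold the only response element, the only arm in a window of Tsc22d1 and both cAMP elements among the members, and capitals mark these letters. In Sgk1 the matches on the 2 strands overlap, and capitals mark both together. A match is a run of letters and not a shown binding site.
Sgk1, chr10:21993660-21993759, forward strand: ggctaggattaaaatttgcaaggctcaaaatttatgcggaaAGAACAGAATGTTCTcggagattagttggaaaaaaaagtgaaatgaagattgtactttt
Tsc22d1, chr14:76504039-76504138, forward strand: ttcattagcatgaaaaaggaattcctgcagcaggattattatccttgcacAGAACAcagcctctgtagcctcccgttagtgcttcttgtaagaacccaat
Dusp1, chr17:26508563-26508662, reverse strand: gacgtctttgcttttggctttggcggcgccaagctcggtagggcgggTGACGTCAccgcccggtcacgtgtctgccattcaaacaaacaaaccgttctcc
Errfi1, chr4:150854970-150855069, forward strand: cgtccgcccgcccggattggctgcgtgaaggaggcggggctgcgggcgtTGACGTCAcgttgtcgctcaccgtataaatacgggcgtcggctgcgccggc

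Before the members are compared, the libraries that stand apart are given. Reads per liver ranged from 4313076 to 6632108. Hepatocyte markers were high in every liver, with summed normalized counts of 363004 to 470119 in wild-type and 396551 to 569263 in S74N/+, and Ddx3y, a Y-linked gene, was at 315 to 533 in all 8. The 10 liver genes known to be higher in males summed to 77302 to 85954 in wild-type livers, to 35364 to 64346 in S74N/+ replicates 1 to 3 and to 17126 in replicate 4, the 2-month-old. S74N/+ replicate 3 was low in cholangiocyte markers, at a sum of 117, where the rest of that genotype held 362 to 380, although wild-type livers ranged from 153 to 394. Rragc itself was at 84.1 ± 20.4 in wild-type livers (SD, n = 4) and 76.6 ± 7.32 with the mutation (SD, n = 4), a log2 difference of -0.11 ± 0.25 (SE, limma adjusted p = 0.93).

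Tsc22d1 (chromosome 14, 76414961 to 76507765, forward strand, GRCm38) was lower in every S74N/+ liver than in any wild-type liver. Its normalized read count was 1274, 1509, 1275 and 1560.2 in wild-type replicates 1 to 4, and 689, 555, 651 and 129.7 in S74N/+ replicates 1 to 4. The wild-type livers lay close together, 3 S74N/+ livers lay at a lower level of their own, and replicate 4 lay far below these. The means were 1404.6 ± 152 and 506 ± 257 (SD, n = 4 each), 2.78 times higher in wild-type, and between 159 and 1670 reads stood behind each value. On the log2(normalized count + 1) scale the difference, here and below S74N/+ minus wild-type, was -1.72 with a standard error of 0.43, and it was -1.15 without S74N/+ replicate 4. Among all tested genes 35 had a more negative difference, and 8 of these were among the 1380 genes with a mean count of at least 500. The tested genes next to it in that order were Gm25291 at -1.82 and Mup7, which encodes a major urinary protein, at -1.70. Of all 11174 tested genes, 183 (1.64%) were lower in every S74N/+ liver than in any wild-type liver, and Tsc22d1 is the 1 member among them by its choice. In whole tissue, fewer cells of a type and less RNA per cell cannot be told apart.

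The level of Tsc22d1 can be read within an age. At 3 months it was 1274 to 1509 in 3 wild-type livers and 555 to 689 in 2 S74N/+ livers. At 2.5 months it was 1560.2 and 651, with 1 liver of each genotype. Tsc22d1 was lower in every S74N/+ liver and was chosen for its lower level, so the same direction at both ages adds no support. The lowest value, 129.7, came from the only 2-month-old mouse. In the 3-month-old mice alone the log2 difference was -1.12. Tsc22d1 makes several isoforms, long and short, and the annotation holds 10 coding transcripts with 9 different 3′ ends that the deposited values sum, so isoforms could not be separated here.

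The other family members did not follow this pattern past the test. Tsc22d2 (chromosome 3, 58414715 to 58466783, forward strand), whose product like that of Tsc22d4 binds the pseudokinase Nrbp1, was at 196, 180.5, 192 and 204 in wild-type and at 181, 161, 188 and 119.9 in S74N/+ livers. The lowest value was again that of S74N/+ replicate 4, and the genotypes overlapped. Its log2 difference was -0.27 ± 0.21 (SE, limma adjusted p = 0.846, exact two-sided permutation p = 0.0857). Tsc22d2 was the steadiest member, since the SD of its log2 values within genotype was 0.21, smaller than that of all but 7.25% of tested genes, where the median over tested genes was 0.45.

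Tsc22d3 (chromosome X, 140539528 to 140600659, reverse strand), the family's glucocorticoid target, was at 76.4, 219.8, 204 and 113 in wild-type and at 212, 153, 94.7 and 167 in S74N/+ livers. High and low livers occurred in both genotypes, and the lowest and highest values were both wild-type. Its log2 difference was 0.10 ± 0.35 (SE, limma adjusted p = 0.959), and it turned to -0.19 without wild-type replicate 1. Tsc22d4 (chromosome 5, 137745730 to 137768450, forward strand), a regulator of lipid secretion by hepatocytes, was at 119, 85.1, 69.3 and 161 in wild-type and at 74.4, 178, 109 and 97.1 in S74N/+ livers. Its values overlapped over nearly their whole range, with a log2 difference of 0.08 and a standard error of 0.32 (limma adjusted p = 0.963).

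**Figure D1:**
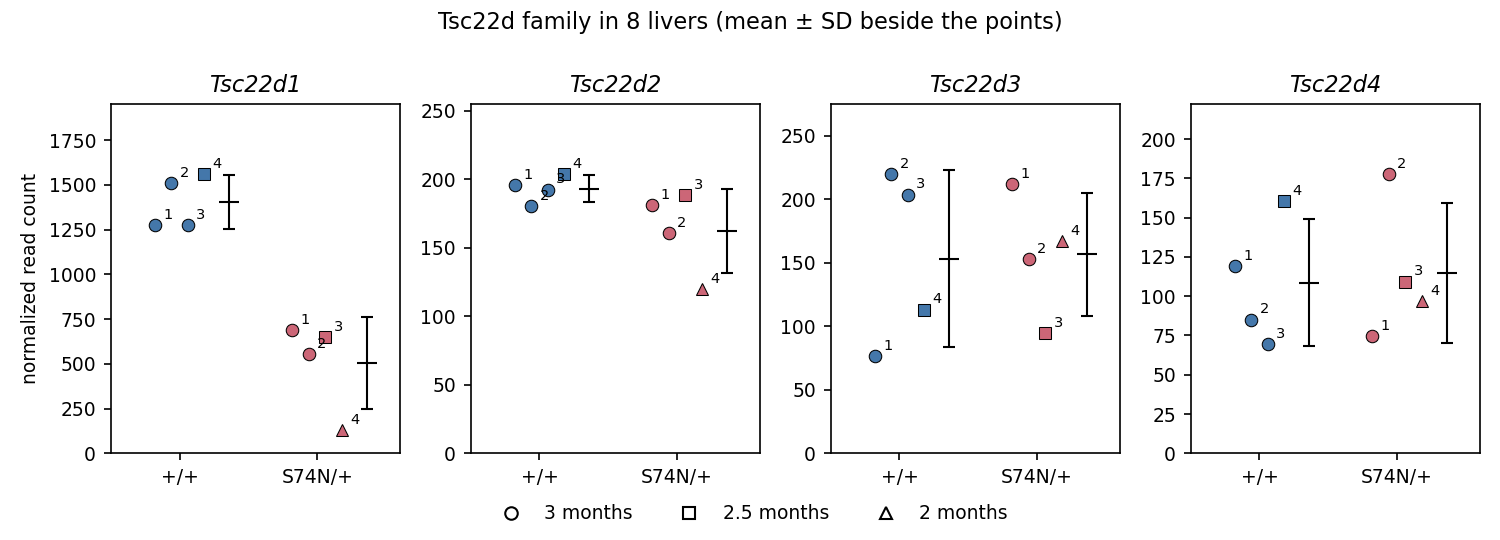
Normalized read count (y axis, starting at 0) of the 4 Tsc22d genes in each liver, wild-type (+/+) in blue and S74N/+ in red, with replicate numbers beside the points, marker shape for age, and mean ± SD to the right of each group. Tsc22d1 is at 1274 to 1560.2 in wild-type and at 129.7 to 689 in S74N/+ livers, whereas the other 3 genes overlap between genotypes.

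Nr3c1 (chromosome 18, 39410545 to 39519421, reverse strand), which encodes the glucocorticoid receptor, was at 270.3, 206, 365 and 323 in wild-type and at 305, 285, 415 and 329 in S74N/+ livers. The genotypes overlapped, and the gene varied little from liver to liver, with an SD of 0.30 within genotype on the log2 scale. Its log2 difference was 0.21 ± 0.23 (SE, limma adjusted p = 0.857).

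Of the glucocorticoid targets, Fkbp5 had the largest difference among the 9 members other than Tsc22d1. Fkbp5 (chromosome 17, 28399094 to 28517527, reverse strand) encodes a co-chaperone of Hsp90 that lowers the receptor's affinity for hormone and so closes a feedback loop. It was at 9.32, 7.48, 38.2 and 16.8 in wild-type and at 57.8, 18.7, 22.3 and 88.1 in S74N/+ livers, from 8 to 108 reads each. S74N/+ replicates 1 and 4 stood above all other livers, whereas replicates 2 and 3 lay below wild-type replicate 3. The log2 difference was 1.32 with a standard error of 0.59, which did not pass adjustment (limma unadjusted p = 0.0416, adjusted p = 0.846, exact two-sided permutation p = 0.114), and it was 0.93 without S74N/+ replicate 4. Fkbp5 was also among the genes that spread most within a genotype, with an SD of 1.02 that exceeded that of 92.3% of tested genes. Other genes annotated across part of its span on the same strand could affect its count, and the same holds for Dusp1 and, with Mir1192, for Klf9.

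Klf9 (chromosome 19, 23141226 to 23168134, forward strand), a zinc-finger transcription factor induced by glucocorticoids, was at 1006, 902, 1609.8 and 696 in wild-type and at 1893, 1167, 989.6 and 1873 in S74N/+ livers. As for Fkbp5, S74N/+ replicates 1 and 4 were the highest and wild-type replicate 3 came next. The log2 difference was 0.50 ± 0.29 (SE, limma adjusted p = 0.846). Sgk1 (chromosome 10, 21882184 to 21999903, forward strand), a kinase that controls sodium channels and shares substrates with Akt, is the member whose window holds the response element. It was at 90.4, 119, 36.8 and 112 in wild-type and at 93.6, 100.4, 59.1 and 151 in S74N/+ livers. Here wild-type replicate 3 was the lowest of all, and replicate 3 of S74N/+ the next, so the order of the livers was not that of Klf9. The log2 difference of Sgk1 was 0.23 ± 0.39 (SE, limma adjusted p = 0.903), and it turned to -0.15 without wild-type replicate 3.

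The remaining members restrain growth factor and stress signaling, and theirs are the windows with a cAMP element. Errfi1 (chromosome 4, 150853919 to 150868892, forward strand) encodes Mig6, a feedback inhibitor of the EGF receptor. It was at 1343, 886, 829 and 1327 in wild-type and at 2553, 814, 912 and 1775 in S74N/+ livers. S74N/+ replicates 1 and 4 were again the highest, but replicate 2 was the lowest of all 8, and the log2 difference was 0.34 ± 0.34 (SE, limma adjusted p = 0.852). Dusp1 (chromosome 17, 26505590 to 26562128, reverse strand) encodes a phosphatase that switches off p38 and JNK. It was at 19.6, 36.5, 45.3 and 25.2 in wild-type and at 135, 31.1, 11.1 and 66.9 in S74N/+ livers. Both extremes belonged to S74N/+, replicate 1 at the top and replicate 3 at the bottom. The log2 difference of Dusp1 was 0.49 ± 0.60 (SE, limma adjusted p = 0.874), and it turned to -0.06 without S74N/+ replicate 1 and was 0.97 with edgeR and 0.96 with DESeq2. With an SD of 1.12 on the log2 scale, Dusp1 spread more within genotype than 94.3% of tested genes.

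**Figure D2:**
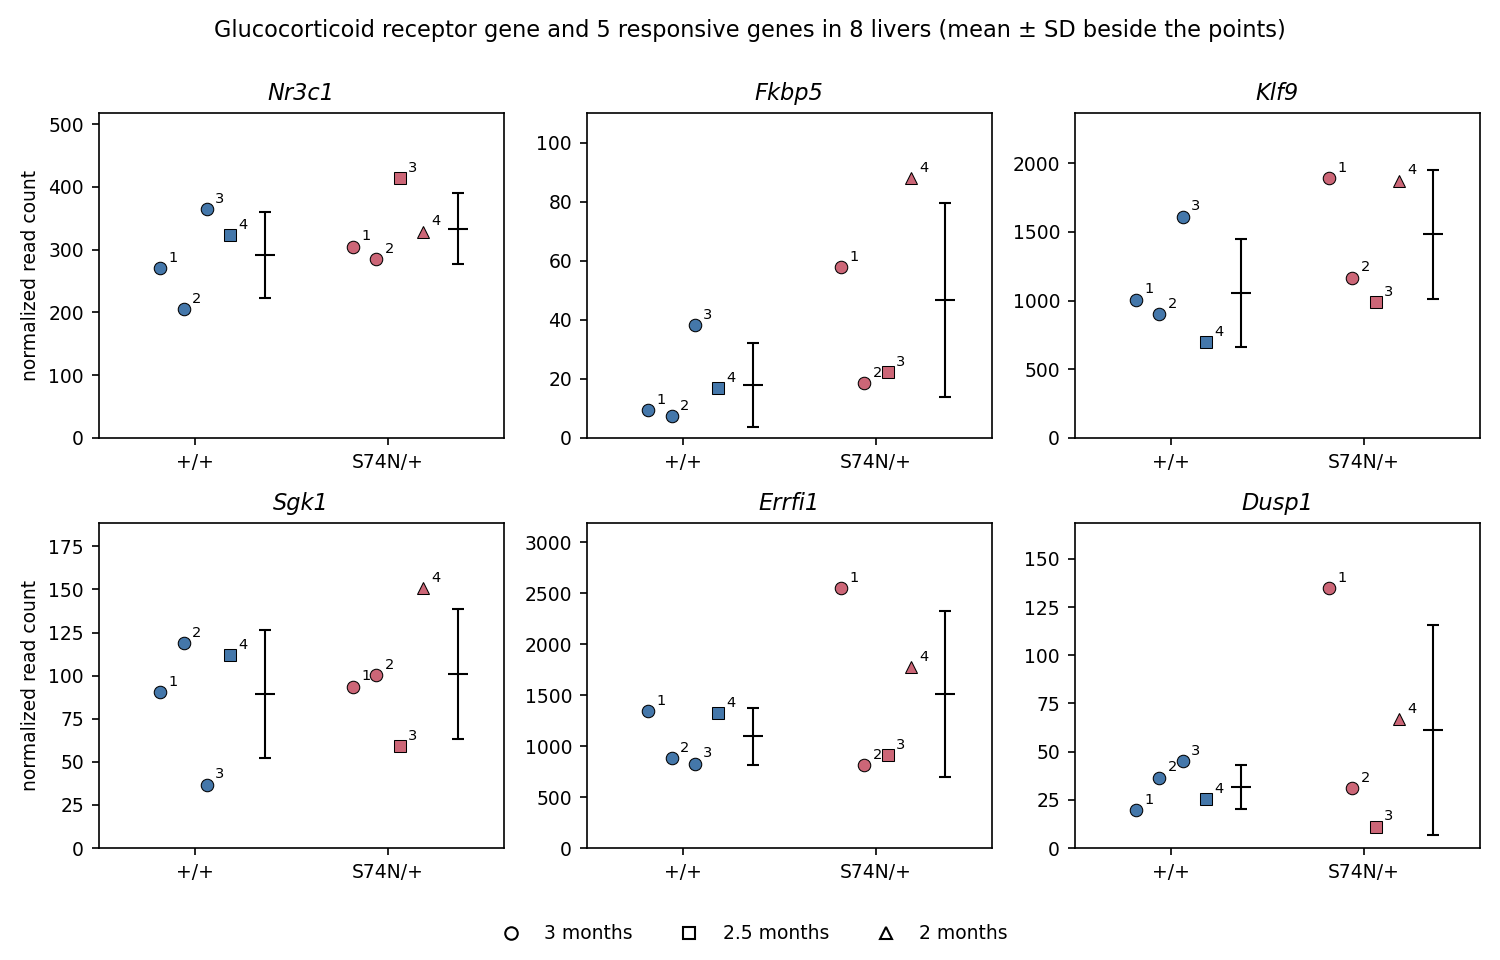
Normalized read count (y axis, starting at 0) of the receptor gene Nr3c1 and 5 glucocorticoid-responsive genes in each liver, drawn as for the Tsc22d family. S74N/+ replicates 1 and 4 hold the highest values of Fkbp5 (57.8 and 88.1), Klf9 (1893 and 1873), Errfi1 (2553 and 1775) and Dusp1 (135 and 66.9), and the genotypes overlap for all 6 genes.

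Counted together, 0 of the 9 members other than Tsc22d1 passed limma's adjusted p of 0.05, where 1 of all 11174 tested genes (0.00895%) did, and edgeR (0.00895% of all genes called) and DESeq2 (0.0896%) also called 0 of the 9. That 1 gene was Gpx3, a secreted glutathione peroxidase, named after its value was seen, with a log2 difference of -1.95. At an unadjusted limma p under 0.05 there was 1 member of the 9, Fkbp5, against 5.17% of all tested genes, and the genotypes separated for 0 of the 9, against 2.94% of all tested genes. The 6 glucocorticoid genes all had a difference above 0, where 5737 of all 11174 tested genes did. Their median was 0.41 on the log2 scale, against 0.01 over all tested genes. This median was 0.24 without S74N/+ replicate 4, with all 6 still above 0, and 0.01 without replicates 1 and 4, with 3 of 6 above 0. Here and for the lists below, these livers were left out of medians after the values were seen. Replicates 1 and 4 were the highest for Fkbp5, Klf9, Errfi1 and Dusp1, so a lower median without them followed from that choice.

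Whether members varied together from liver to liver was tested over the 8 livers for the 36 pairs of members without Tsc22d1 and for each of the 9 members with the mean of 7 clock genes that peak near dusk, 45 relations in all. None of the 45 passed Benjamini-Hochberg adjustment, the smallest adjusted permutation p being 0.403 for Pearson's r and 0.327 for Spearman's rho. The closest pair was Fkbp5 and Klf9, with r = 0.84 (exact permutation p = 0.0117) and rho = 0.81 (exact permutation p = 0.0218). This r was 0.60 without the 2 livers farthest from the median of Fkbp5, S74N/+ replicates 4 and 1, and 0.77 when values were centred within genotype. Tsc22d3 and Dusp1 had r = 0.77 (exact permutation p = 0.0223) and rho = 0.81 (exact permutation p = 0.0218), with r = 0.58 without the 2 farthest livers. For Klf9 and Dusp1 r was 0.76 (exact permutation p = 0.0269) and rho was 0.74 (exact permutation p = 0.0458), and r was 0.40 without S74N/+ replicates 1 and 4, on which this relation mainly rests. With the dusk genes, Tsc22d2 had the closest relation by rank, rho = 0.83 (exact permutation p = 0.0154) with r = 0.59 (exact permutation p = 0.115), and r was 0.70 without the 2 livers farthest from the median of the dusk genes.

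The wider glucocorticoid pathway was described with lists of genes. Of 17 tested genes of the receptor machinery, that is chaperones, cofactors and enzymes that make or clear the active hormone, 0 passed limma's adjusted threshold, 1 had an unadjusted p under 0.05 (Fkbp5) against 5.17% of all tested genes, and the median log2 difference was 0.00, against 0.01 over all tested genes, with 8 above and 9 below 0. The largest differences after Fkbp5 were those of Stub1, a ubiquitin ligase of Hsp90 clients, at -0.56 with a standard error of 0.31, and of Ppp5c, a phosphatase bound to the receptor complex, at 0.45 with a standard error of 0.31. With edgeR and, where it gave an adjusted p, DESeq2, too, 0 genes passed in this list and in each of the glucocorticoid, partner, signaling, immediate early and clock gene lists that follow.

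Of 20 other tested genes known to be induced by glucocorticoids, 0 passed the adjusted threshold with limma, edgeR or DESeq2, 3 had an unadjusted limma p under 0.05, all higher, against 2.37% of all tested genes, and 15 differences were above 0, where 5737 of all 11174 were. DESeq2 gave no adjusted p for Mt1 and Mt2. Their median log2 difference was 0.52, against 0.01 over all tested genes. It was 0.24 without S74N/+ replicate 4 and 0.03 without replicates 1 and 4. Igfbp1, a liver-secreted binder of insulin-like growth factors, was the 1 gene of the list whose genotypes did not overlap, against 1.3% of all tested genes higher in this way. Its counts were 275, 235, 80.6 and 168 in wild-type and 1191, 338, 279 and 2252 in S74N/+ livers. The lower 2 of the S74N/+ livers lay just above the highest wild-type liver and the other 2 far above it. The log2 difference was 2.04 ± 0.59 (SE, limma adjusted p = 0.846), and 1.48 without replicate 4.

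The other genes of that list with an unadjusted p under 0.05, named after their values were seen, were Pck1, the rate-limiting enzyme of glucose production, and Klf15, a transcription factor of amino acid breakdown. Pck1 was at 425, 648, 986 and 802 in wild-type and at 1999, 823, 849 and 4095 in S74N/+ livers. Klf15 was at 38.2, 90.7, 84.9 and 48.6 in wild-type and at 172, 88.9, 80.2 and 217 in S74N/+ livers. In both genes only S74N/+ replicates 1 and 4 exceeded every wild-type liver, as in Fkbp5, Klf9, Errfi1 and Dusp1. The log2 differences were 1.18 with a standard error of 0.45 for Pck1 and 1.04 with a standard error of 0.38 for Klf15 (limma adjusted p = 0.846 for both). In the other direction, 5 genes of the list were below 0. The farthest of these, also named after their values were seen, were Bcl6 at -0.98 and Angptl4 at -0.47, with standard errors of 0.70 and 0.58.

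The metallothioneins Mt1 and Mt2, small zinc-binding proteins induced by glucocorticoids and by metals, had large differences that came from 1 liver. Mt1 was at 53.1, 207, 52.3 and 43.9 in wild-type and at 41.3, 106, 147 and 4381 in S74N/+ livers. Mt2 was at 26.1, 43.0, 9.9 and 10.3 in wild-type and at 23.9, 21.3, 13.4 and 1887 in S74N/+ livers. Only S74N/+ replicate 4, the 2-month-old, stood out. The log2 differences of 1.69 for Mt1 and 1.67 for Mt2, with standard errors of 1.07 and 1.20, were 0.28 and 0.03 without this liver. On recovered reads the differences were 3.72 for Mt1 and 4.42 for Mt2 with edgeR and 3.73 and 4.46 with DESeq2. A pseudocount of 0.1 in place of 1 hardly changed the limma differences of both genes. Why edgeR and DESeq2 gave larger differences than limma was not tested.

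Immediate early genes are raised within minutes by stress and growth factors, as Dusp1 is. Of 11 tested, 0 passed the adjusted threshold with limma, edgeR or DESeq2, 1 had an unadjusted limma p under 0.05, against 5.17% of all tested genes, and 9 differences were above 0, where 5737 of all 11174 were. The median was 0.49, against 0.01 over all tested genes, and it became 0.30 without S74N/+ replicate 4 and 0.01 without replicates 1 and 4. Junb, a subunit of the AP-1 transcription factor, was at 28.9, 35.5, 38.2 and 9.34 in wild-type and at 89.1, 31.1, 35.7 and 162 in S74N/+ livers (log2 difference 1.32, standard error 0.55, limma unadjusted p = 0.0323, adjusted p = 0.846). Egr1, a zinc-finger factor, was at 31.7 to 128 in wild-type and at 55.7 to 96.9 in S74N/+ replicates 1 to 3, and at 498 in replicate 4. Btg2, an antiproliferative gene, was at 9.34 to 40.1 in wild-type and at 14.5 to 45.9 in S74N/+ replicates 1 to 3, and at 150.1 in replicate 4. For both, the high liver was again the 2-month-old.

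**Figure D3:**
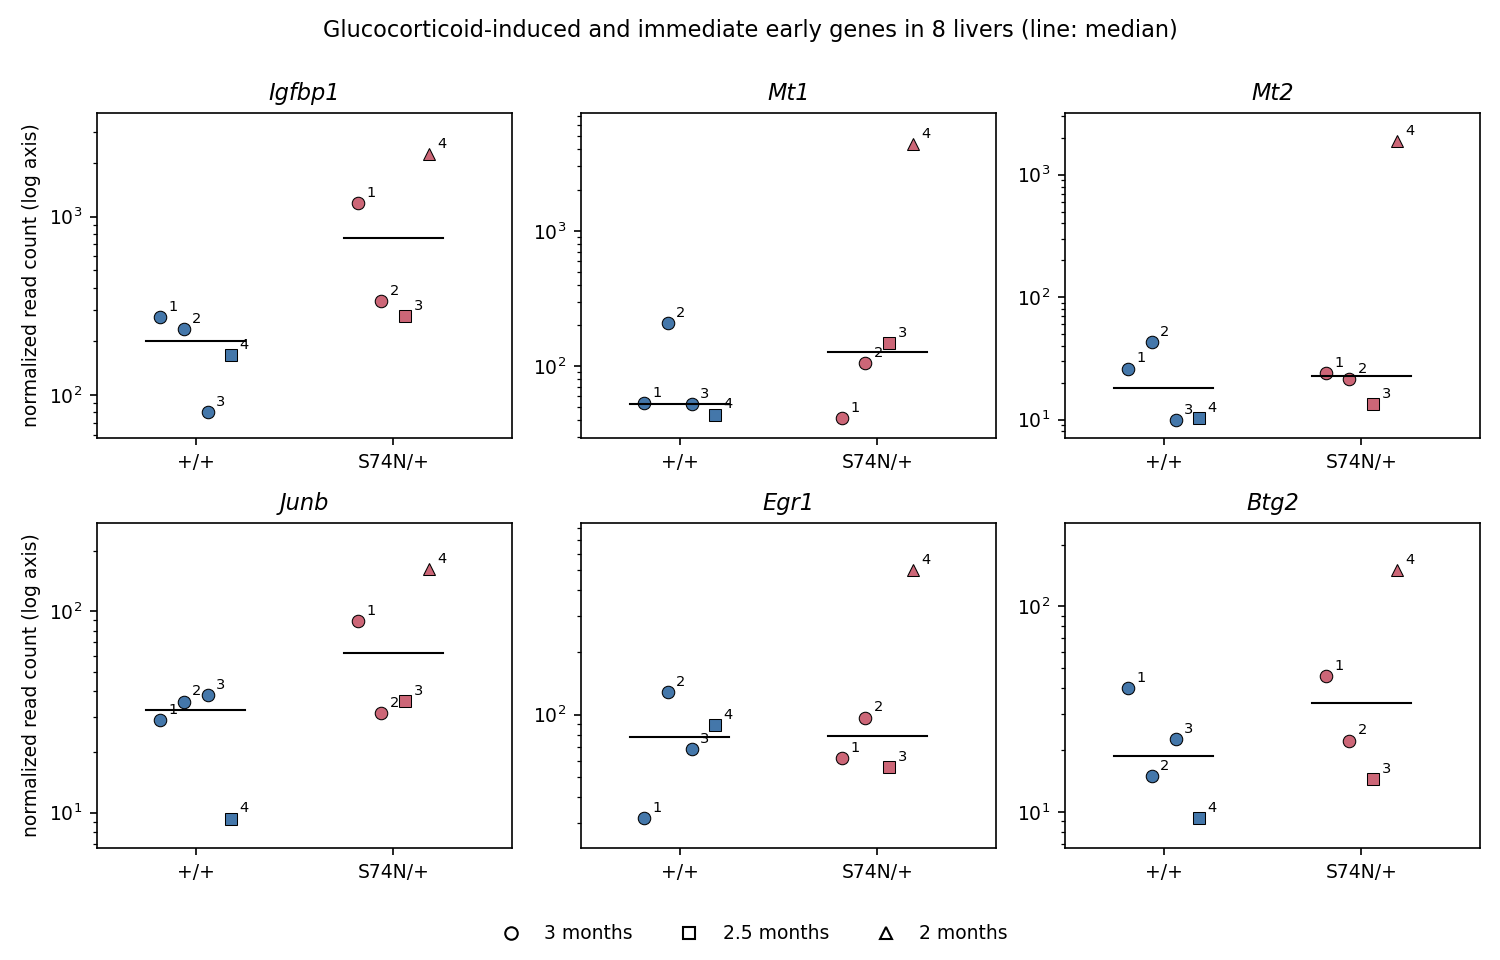
Normalized read count (y axis, log scale) of 3 glucocorticoid-induced genes (Igfbp1, Mt1, Mt2) and 3 immediate early genes (Junb, Egr1, Btg2) in each liver, with the group median as a line and marker shape for age. S74N/+ replicate 4 is the highest liver for all 6 genes, reaching 4381 for Mt1 against 147 at most in the other S74N/+ livers.

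Partners of the Tsc22d proteins were described as a list as well. The list held 7 tested genes for Nrbp pseudokinases, WNK kinases, their effector kinases and Nedd4 ligases. These act with Tsc22d proteins in cell volume control or downstream of Sgk1. Of the 7, 0 passed the adjusted threshold and 0 an unadjusted limma p of 0.05, against 5.17% of all tested genes. The median log2 difference was -0.15, against 0.01 over all tested genes, with 3 above and 4 below 0. Nrbp2 was at 0.39, Nrbp1 at -0.31 and the ubiquitin ligase Nedd4 at -0.25 on the log2 difference scale. The signaling genes around Errfi1 and Dusp1, that is EGF receptor family members and MAP kinase feedback genes, had 7 tested. Of these, 0 passed either threshold, against 5.17% of all tested genes at the unadjusted one. The median was 0.28, against 0.01 over all tested genes, and 5 were above 0, where 5737 of all 11174 were. Their largest differences were those of the receptor Erbb3 at 0.51 and of the phosphatases Dusp3 at -0.44 and Dusp16 at -0.38.

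Since glucocorticoids follow the day, clock genes were looked at beside the members. Tested were 4 that peak near dawn and 7 that peak near dusk. Of these, 0 passed either threshold, against 5.17% of all tested genes at the unadjusted one. The medians were 0.03 for dawn and -0.31 for dusk genes, against 0.01 over all tested genes. Arntl, an activator of the clock, was at 0.68, Clock at -0.36 and Nfil3 at 0.17 on the log2 difference scale, and of the dusk genes the repressor Per3 was at -1.18, Hlf at -0.54 and Nr1d2 at 0.54. The mean log2 value of the dusk genes was 6.22, 5.82, 6.09 and 7.12 in wild-type replicates 1 to 4 and 5.90, 5.32, 7.43 and 5.56 in S74N/+ replicates 1 to 4. The highest livers were wild-type replicate 4 and S74N/+ replicate 3, which are also the only ones aged 2.5 months, and the part of collection time in the members' values was not tested.

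**Figure D4:**
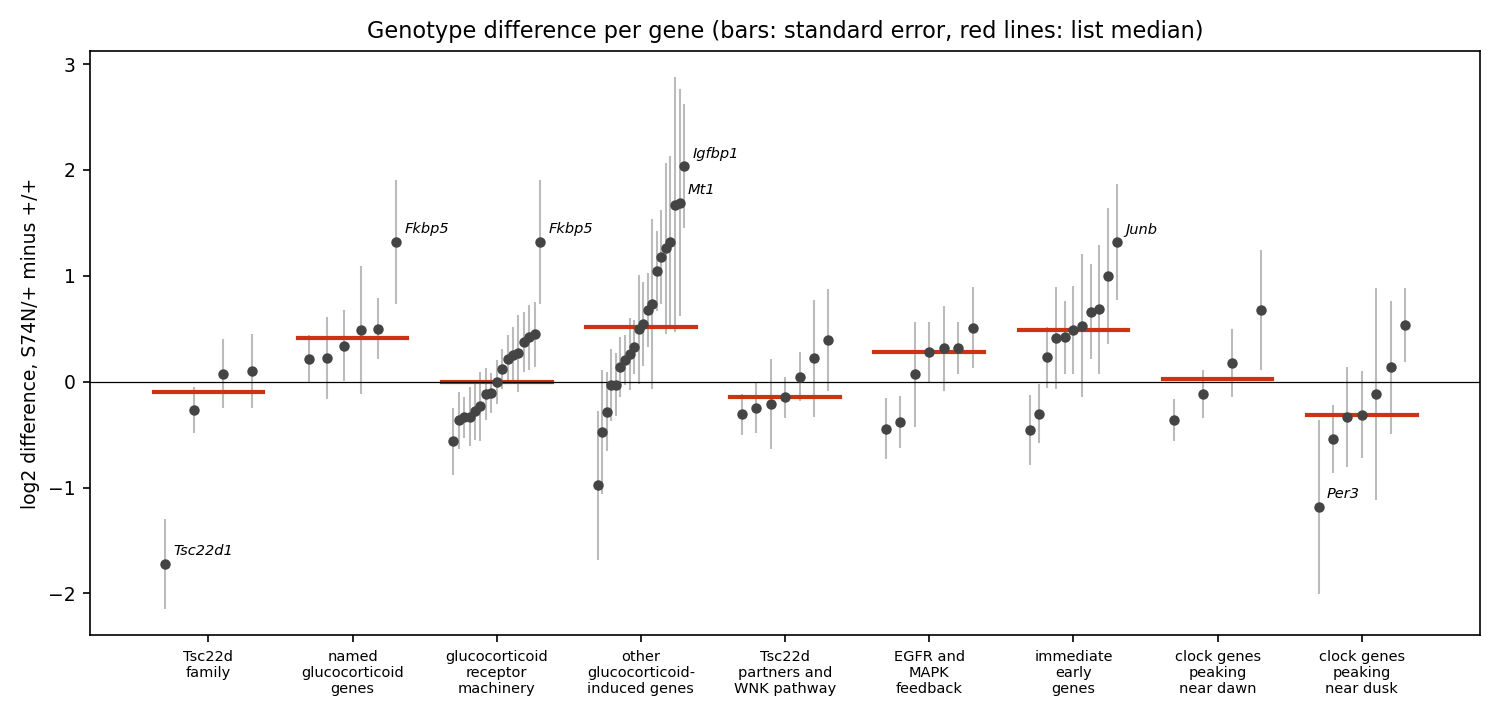
Log2 difference, S74N/+ minus wild-type (y axis), of each tested gene in 9 gene lists, with bars of 1 standard error and red lines for list medians. The medians of the 6 named glucocorticoid genes (0.41), of other glucocorticoid-induced genes (0.52) and of immediate early genes (0.49) lie above 0, and Tsc22d1, at -1.72, is the lowest point.

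The genes whose levels were most like that of Tsc22d1 were found by Pearson's r of log2 values with each of the 11173 other tested genes over the 8 livers, which share library and depth within a liver. Because r over both genotypes includes the difference that chose Tsc22d1, these values are a description. Selenbp2, a selenium-binding protein higher in male liver, came first at 0.98, followed by Gpx4-ps2, a pseudogene of a glutathione peroxidase that could share reads with its parent gene, at 0.97, the adhesion molecule Cadm4 at 0.97, the heme-modifying enzyme Cox10 at 0.97, Wbp1 at 0.97 and Mup21, one of the major urinary proteins, whose similar genes could share reads, at 0.96. Selenbp2 was at 4624 to 7042 in wild-type livers, at 2995, 1511 and 3319 in S74N/+ replicates 1 to 3 and at 225 in replicate 4. Mup21 was at 498 to 785 in wild-type livers, at 405, 295 and 281 in S74N/+ replicates 1 to 3 and at 23.7 in replicate 4, while Cadm4 rested on 1 read in that liver. In all, 86 genes had r of at least 0.9 and 34 of -0.9 or less, and 25 had at least 0.9 without replicate 4.

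Among the members, Tsc22d2 was the most like Tsc22d1, with r = 0.93 and rank 32 among all genes, but r = 0.69 and rank 380 without S74N/+ replicate 4. The value without replicate 4 still includes the genotype difference that chose Tsc22d1. Within the 4 wild-type livers, where both genes vary little, r was -0.015. Over the 8 livers, Fkbp5 had the most negative r of the members, -0.73, followed by Klf9 at -0.62. For Tsc22d3 and Tsc22d4 r was -0.13 and 0.01.

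The likeness to Selenbp2 and Mup21 led to the genes known to be higher in male than in female liver, which had been listed for the check of the libraries. On average these genes had a log2 value of 11.80, 11.81, 11.69 and 11.52 in wild-type replicates 1 to 4 and 11.36, 10.75, 11.15 and 8.11 in S74N/+ replicates 1 to 4. The r of this mean with Tsc22d1 was 0.96 over 8 livers, 0.98 when centred within genotype and 0.88 without replicate 4. The centred value includes replicate 4, which was far below the others in both measures. The value without replicate 4 was not centred and still includes the genotype difference that chose Tsc22d1. Within the 4 wild-type livers, where both measures vary little, r was -0.45. Of these 10 genes, 10 had a log2 difference below 0, where 5737 of all 11174 tested genes were above 0. Their median was -1.16, against 0.01 over all tested genes. Without replicate 4 it was -0.58, with 1 gene above 0. With limma, 0 passed the adjusted threshold and 5 had an unadjusted p under 0.05, all lower, against 2.8% of all tested genes. Genotypes did not overlap for 1 of the 10, lower in S74N/+, against 1.64% of all tested genes. Ddx3y was present in all 8 livers, as given above, and the part of these genes' shared variation in the level of Tsc22d1 was not tested.

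**Figure D5:**
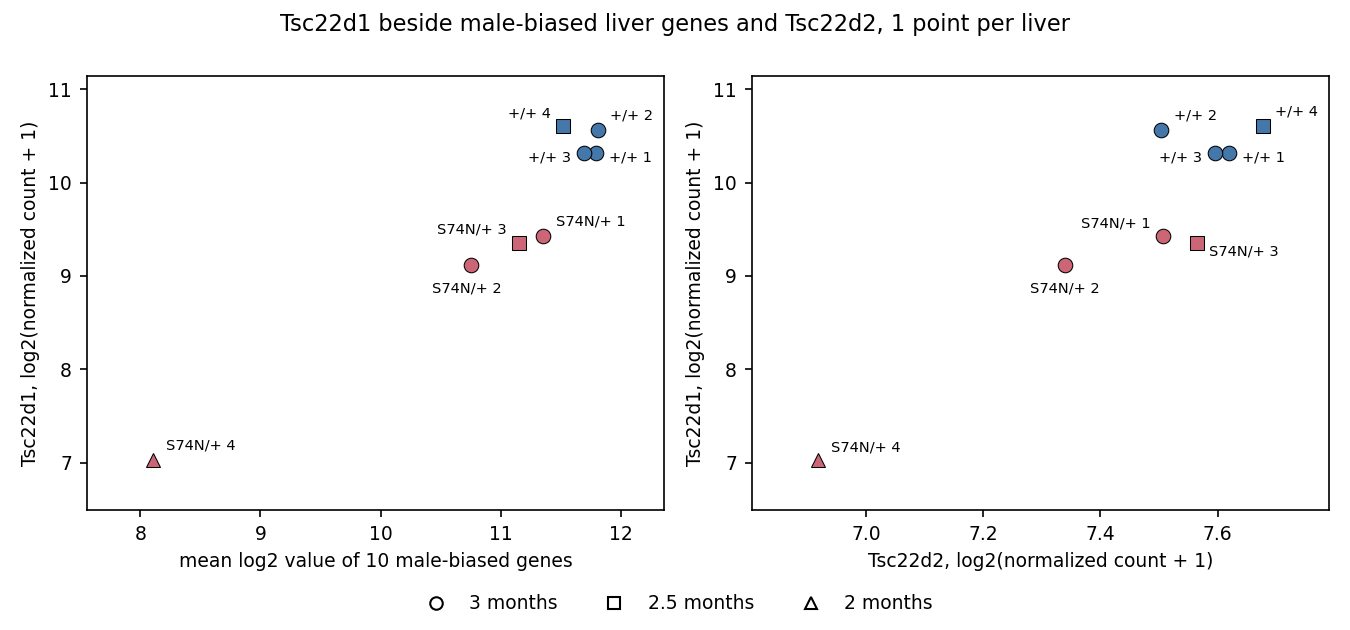
Log2(normalized count + 1) of Tsc22d1 (y axis) against the mean log2 value of 10 male-biased liver genes (left) and against Tsc22d2 (right), 1 labelled point per liver, wild-type in blue, S74N/+ in red, and marker shape for age. S74N/+ replicate 4 lies at the lower left of both panels, at 7.03 for Tsc22d1, 8.11 for the male-biased genes and the lowest Tsc22d2.

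Markers of other cell types in the tissue were set beside Tsc22d1. Their summed normalized counts were 2061 to 3458 in wild-type and 2439 to 3976 in S74N/+ livers for 10 Kupffer cell genes, 2340 to 2751 and 2181 to 2484 for 10 endothelial genes, and 2455 to 2828 and 2066 to 2805 for 10 stellate cell genes. These sums, which the most abundant genes dominate, overlapped in each case, as they did for erythroid genes (7782 to 14303 and 7828 to 13342) and leukocyte genes (151 to 258 and 211 to 261). The mean log2 value over the 10 Kupffer cell genes, in which each gene counts alike, did not overlap, at 7.09 to 7.15 in wild-type and 7.25 to 7.89 in S74N/+ livers. Of these genes 3 had an unadjusted limma p under 0.05, all higher in S74N/+, against 2.37% of all tested genes. With limma, 0 of them passed adjustment. The scavenger receptor Marco, named after its values were seen, was the 1 gene among them whose genotypes did not overlap, against 1.3% of all tested genes higher in this way. It was at 20.5 to 25.5 in wild-type and 37.9 to 125 in S74N/+ livers. The mean log2 values of endothelial, stellate, leukocyte and erythroid genes overlapped between genotypes. Single genes among them also had an unadjusted limma p under 0.05, against 5.17% of all tested genes. These were 2 of 10 endothelial (higher), 2 of 9 stellate (1 higher, 1 lower), 1 of 4 leukocyte (higher) and 0 of 5 erythroid genes. Genotypes did not overlap for 2 stellate genes and 1 erythroid gene, all lower, against 1.64% of all tested genes. Kidney genes, with 4 of 7 listed, summed to 75.0 to 179 in wild-type and to 19.6 to 56.0 in S74N/+ livers, and pancreas genes, with Cela1 alone of 6 listed, to 233 to 434 and 92.2 to 239.6. The kidney sum was lower in all 4 S74N/+ livers than in any wild-type liver, as Tsc22d1 was, and the pancreas sum in 3 of 4. Only 1 kidney gene, Kap, passed the filter on low values, so the kidney list is in effect a single gene. Its log2 value was 6.11 to 7.36 in wild-type and 2.94 to 5.56 in S74N/+ livers. Of all tested genes, 1.64% were lower without overlap in this way. The part of Kupffer cell, kidney and pancreas genes in the level of Tsc22d1 was not tested.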

How the data were processed

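Liver RNA of 8 mice was profiled by 3′ messenger RNA sequencing. Per the labels and the study's methods, reads were checked by the authors with FastQC 0.11.7, aligned with TopHat2 2.0.10, Bowtie 1.0.0 and SAMtools 0.1.19 on GRCm38, and counted by strand per gene with HTSeq 0.6.1. DESeq scaling gave the deposited signal, which is a normalized count for each gene in each liver. No molecular identifiers are stated. All values (100%) were whole multiples of 1 read (tolerance 0.01), so reads were recovered, with size factors from 0.707 to 1.23. Genes absent from the table were not analysed here.

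Here log2(normalized count + 1) of genes with a mean of at least 10 was fitted with limma 3.58.1 in R 4.3.3 (genotype as the only term, empirical Bayes with a mean-variance trend) with Benjamini-Hochberg adjustment over all 11174 genes. This scale understates the change of low genes. Exact two-sided permutation tests ran over all 70 labellings. The alternatives tried were a pseudocount of 0.1 or 5, the filter dropped or raised to 50, rescaling by TMM or the upper quartile, limma with array weights or with no trend, age added as a number or as a factor, the 3-month-old mice alone, edgeR 4.0.16 and DESeq2 1.42.0 on recovered reads, and each liver left out. Scripts were tested on simulated data.

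Members and lists were chosen with earlier results of these data known, so a pattern in them is not independent support. Named genes were the members, Rragc, of each list the genes whose genotypes did not overlap and the 3 with the largest absolute difference, and the 6 most like Tsc22d1. GENCODE M21 (GRCm38) gave the gene positions and RefSeq the promoter windows. The labels describe separate mice, and p-values measure the spread between them.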

Additional observations from a re-analysis of the deposited data

Results flagged for a closer look

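In groups of 4 livers, a value was looked at again where its gap to the nearest liver, divided by the range of the group, exceeded Dixon's 95% critical value. This held in 6 of 60 groups examined, where about 3 are given by chance (1 in 20). The first was Tsc22d1 in S74N/+ replicate 4. Its log2 value there was 7.03, and the other livers of the genotype held 9.12 to 9.43.

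In S74N/+ replicate 3, the mean log2 value was 6.58 for clock genes peaking near dawn (7.28 to 7.38 in the rest of the genotype), 6.73 for endothelial markers (7.30 to 7.38) and 5.26 for cholangiocyte markers (6.60 to 6.87). In wild-type replicate 4, the single tested kidney marker, Kap, was at 7.36, where the rest held 6.11 to 6.26. Wild-type replicate 3 had 4313076 recovered reads and the other wild-type livers 6177759 to 6509465.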

How the results depend on the processing

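No paired analysis was possible because replicate numbers were given in sample order and tie no mouse to another. Over all settings run, 0 members other than Tsc22d1 passed the adjusted threshold. The lists of cell type markers and male-biased genes were not counted over the settings, and in the other lists 0 genes passed, Tsc22d1 left out. The lowest adjusted p of the members other than Tsc22d1 in any setting was 0.28 (Fkbp5, limma without S74N/+ replicate 3). The log2 difference of Tsc22d1 ranged from -1.95 to -1.12, with -1.34 under age as a covariate and -1.16 under age as a factor. Tsc22d1 carries no test here and is left out of the count of genes past the threshold, which was 1 (Gpx3). This count was 0 with limma without the trend (603 of all tested genes before adjustment) and 0 under age as a covariate (415). It was 0 in 3-month-old mice alone (641), 2 under age as a factor (Gpx3 and Mup17, 632 before adjustment) and 10 with DESeq2 (675). With each liver left out in turn it was 0 to 2 (315 to 1690), the 2 (Gpx3 and Marco) without S74N/+ replicate 3. The cause was not tested, although fewer livers enter some of these settings.

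Signs turned in small differences. With each liver left out in turn, the log2 difference ranged from -0.19 to 0.32 for Tsc22d3, from -0.16 to 0.29 for Tsc22d4, from -0.15 to 0.46 for Sgk1, from -0.061 to 1.10 for Dusp1, from -0.025 to 1.02 for Egr1, from -0.027 to 0.41 for Nfil3 and from -0.14 to 0.62 for Nrbp2. Tsc22d3 fell below 0 without wild-type replicates 1 or 4 (-0.00230) or S74N/+ replicate 1 (-0.063), and Tsc22d4 without wild-type replicates 2 (-0.015) or 3 (-0.11) or S74N/+ replicate 2. The others did so without wild-type replicate 3 (Sgk1) or 4 (Nrbp2), or S74N/+ replicate 1 (Dusp1, Nfil3) or 4 (Egr1). Egr1 was also at -0.026 under age as a factor, and in 3-month-old mice alone Mt1 was at -0.33 and Nrbp2 at -0.21. The median of the EGF receptor and MAP kinase genes was 0.087 without S74N/+ replicate 4 and 0.028 without replicates 1 and 4, alternatives chosen after seeing the data. Count tools moved Egr1 to 1.18 and Per3 to -0.67 (edgeR) or -0.66 (DESeq2), and DESeq2 gave no adjusted p for Mt1, Mt2 and Dbp. With a mean of at least 50, Fkbp5 and Dusp1 were left out of the fit. Fkbp5 rested on as few as 8 reads in a liver, which limits its precision.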
